A study of Mus musculus with 84 samples.

Results

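The genes described are the 9 that encode the subunits of AMPA and kainate receptors, Gria1 to Gria4 and Grik1 to Grik5. They were taken by symbol from the 43629 genes of the count table, with all 9 found and all 9 passing the filter on low counts that left 17071 genes for testing. The study selected mice for drinking ethanol and for ethanol withdrawal at the same time, and sequenced RNA of the ventrolateral striatum, dissected by hand from frozen brains. The animals were adults of selection generation 4 of the SOT and NOT lines, had received no treatment, and give 1 library each. Of the 84 libraries, 44 carry the label High Drinker (21 females and 23 males) and 40 the label Low Drinker (18 females and 22 males). The labels do not say which line name belongs to which drinking group, and they name neither families nor replicate lines, so p-values take the animals as independent.

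AMPA and kainate receptors are cation channels opened by glutamate, each built from 4 subunits around a central pore. AMPA receptors carry most fast excitatory transmission, including the input from cortex and thalamus to the medium spiny neurons that make up most of the striatum. Kainate receptors sit on both sides of the synapse and shape release and excitability. Grik1 to Grik3 can form channels by themselves, whereas Grik4 and Grik5 encode subunits that need a partner from the first group. In Gria2, Grik1 and Grik2 a glutamine codon of the pore loop is changed in the RNA to an arginine codon, which lowers the entry of calcium through the channel.

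That codon and its surroundings, the stretch where the 9 subunits can be set side by side, read as follows in the coding strand of the GENCODE transcripts (GRCm38, the assembly also called mm10). Each window is 48 bases long, 5′ to 3′, and the capitals mark the glutamine codon.
Gria1: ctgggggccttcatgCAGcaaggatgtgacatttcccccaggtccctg
Gria2: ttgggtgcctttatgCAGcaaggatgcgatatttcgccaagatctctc
Gria3: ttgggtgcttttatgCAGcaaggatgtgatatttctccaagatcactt
Gria4: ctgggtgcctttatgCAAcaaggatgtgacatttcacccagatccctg
Grik1: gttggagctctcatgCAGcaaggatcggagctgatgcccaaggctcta
Grik2: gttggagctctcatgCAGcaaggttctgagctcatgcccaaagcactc
Grik3: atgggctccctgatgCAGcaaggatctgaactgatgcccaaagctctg
Grik4: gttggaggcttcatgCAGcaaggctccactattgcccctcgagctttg
Grik5: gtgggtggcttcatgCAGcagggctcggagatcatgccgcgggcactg
The codon lies at chr11:57243094-57243096 in exon 11 of 16 of Gria1, at chr3:80706911-80706913 (minus strand, exon 11 of 16) of Gria2, at chr10:49244329-49244331 (minus strand, exon 13 of 17) of Grik2 and at chr16:87940542-87940544 (minus strand, exon 12 of 17) of Grik1. Windows differed at 5 to 21 of 48 bases within a family and at 16 to 20 between families. Gria1 and Gria4, like Gria2 and Gria3, differed at 5 bases, and Grik1 and Grik2 at 6. Over the whole coding sequence, identity ran from 50.9% to 72.0% within a family and from 45.6% to 51.0% between them. The longest run of bases shared by the transcripts of any pair of members was 59, shorter than the reads of 100 bases. The gene counts read neither the edited codon nor the alternative exons of these genes, so the values below are totals per gene.

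Library totals ran from 22190363 to 41300401 counts, and the members had between 140 counts (the lowest for Grik1) and 36604 counts (the highest for Gria2) in a library. Exons of 4 members overlap small RNA genes, whose mean counts were at most 0.71. The sample-sheet numbers that end the sample titles fall into 3 runs, called sheet sets here, of 48, 30 and 6 libraries. Set 1 holds 30 High and 18 Low Drinker libraries, set 2 holds 11 and 19, and set 3 holds 3 of each, so the set was a term in every model. The libraries High Drinker 17 and Low Drinker 8, 32, 33 and 34 stood apart, with the 5 lowest median correlations with the other libraries (0.958 to 0.963, the next being 0.968). Results are given without them where they were run that way and the number of calls changed. Markers of medium spiny neurons varied widely, with the dopamine signalling protein gene Ppp1r1b at 81.4 to 2696 CPM (counts scaled to a common library total) and Drd1, a dopamine receptor of these neurons, at 14.8 to 382 CPM. Slc17a7, the vesicular glutamate transporter of cortical neurons, was at 94.4 to 2514 CPM, so all libraries held RNA that carries cortical markers.

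Per length of the merged exons, Gria1 and Grik5 had the highest levels of the 9 genes and Grik1 and Grik4 the lowest. Gria1 was at 85.3 ± 11.2 CPM per kb (SD, n = 84), Gria2 at 43.2 ± 7.57, Gria3 at 30.7 ± 6.80 and Gria4 at 17.2 ± 2.92. Among kainate subunits Grik5 was at 79.4 ± 9.94 CPM per kb, Grik3 at 22.7 ± 4.48, Grik2 at 12.9 ± 4.06, Grik4 at 4.90 ± 1.24 and Grik1 at 3.53 ± 0.84. The order within each family held in nearly every library: Gria1 lay above Gria2 in 84 of 84, Gria2 above Gria3 in 83, Gria3 above Gria4 in 83, Grik5 above Grik3 in 84 and Grik3 above Grik2 in 76. Across families Gria1 lay above Grik5 in 59 of 84 libraries, Gria4 above Grik2 in 61 and Grik3 above Gria4 in 74. With the length of the principal annotated transcript these counts were 69, 79 and 61.

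As a share of the AMPA total per kb, Gria1 made up 48.5 ± 5.77%, Gria2 24.3 ± 2.47%, Gria3 17.3 ± 3.29% and Gria4 9.82 ± 1.81% (SD, n = 84). Of the kainate total, Grik5 made up 64.2 ± 3.75%, Grik3 18.4 ± 3.38%, Grik2 10.6 ± 3.53%, Grik4 3.98 ± 0.99% and Grik1 2.88 ± 0.77%. The summed AMPA level was 1.44 ± 0.18 times the summed kainate level per kb. These shares depend on the length used: with the principal annotated transcript in place of the merged exons, Gria1 took 40.3% of the AMPA total, Gria2 27.02% and Gria3 24.3%, Gria2 lay above Gria3 in 55 of 84 libraries, and the ratio of totals was 1.95 ± 0.27. Under both lengths Gria1 was the largest AMPA share and Grik5 the largest kainate share. By line, the Gria1 share was 48.7 ± 5.77% in High Drinker (n = 44) and 48.2 ± 5.83% in Low Drinker animals (n = 40), and the Grik5 share was 63.9 ± 3.55% and 64.5 ± 3.97%. In the same order the Gria4 share was 9.35 ± 1.54% and 10.3 ± 1.95%, and the AMPA total was 1.49 ± 0.18 and 1.39 ± 0.18 times the kainate total. These shares and totals were not tested.

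**Figure D1:**
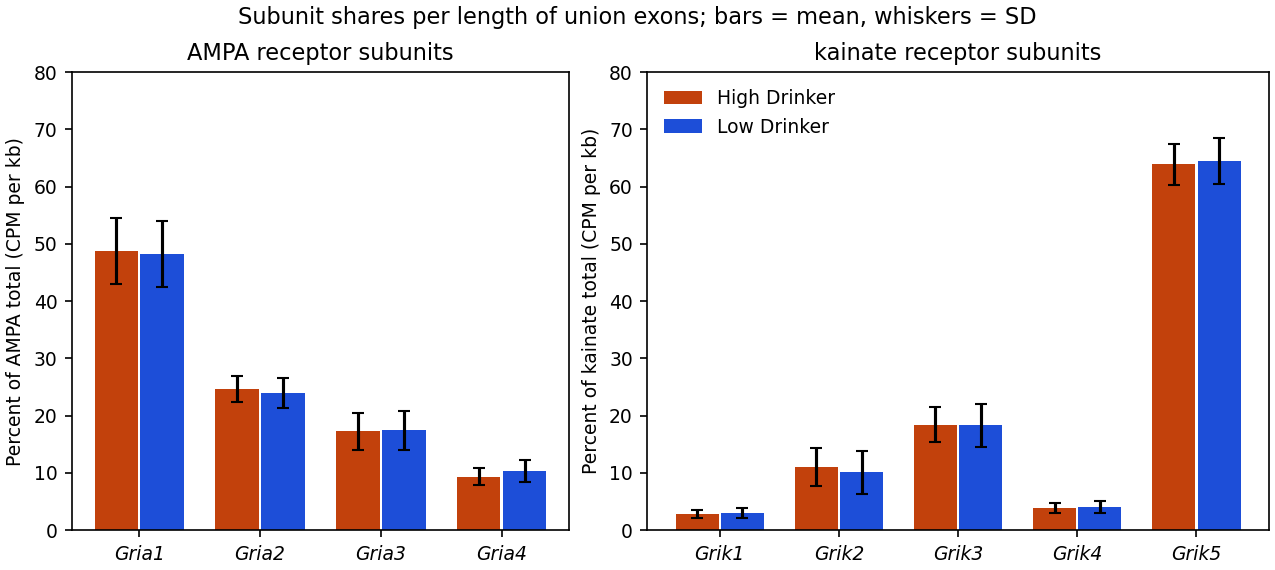
Share of each subunit in the summed level of its family, in percent of CPM per kb of merged exons, for High Drinker (n = 44) and Low Drinker (n = 40) libraries; bars are means and whiskers SDs. Gria1 holds 48.5% of the AMPA total and Grik5 64.2% of the kainate total over all libraries, and the SD whiskers of both lines overlap for each subunit.

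The subunits differed in how much they varied between animals. After removal of set, sex and line, the SD of log2 CPM was 0.43 for Grik2, higher than in 92.6% of the 10247 tested genes with at least 10 CPM, whose median SD was 0.18. Grik1 had an SD of 0.35, Grik4 of 0.32, Gria3 of 0.30, Grik3 of 0.27, Gria2 of 0.26 and Gria4 of 0.25, all above that median. Gria1, at 0.18, and Grik5, at 0.17, sat close to it. These 2 genes, with the highest level per kb in their families, also had the smallest spread of them. Of the 18 extremes (the lowest and the highest library of each gene), 7 fell in the 5 libraries that stood apart. Low Drinker 8 had the lowest Gria2, Gria3 and Grik3, and Low Drinker 34 the lowest Gria1 and Grik2. High Drinker 4, which was not among the 5, had the lowest Grik1 and the highest Grik2.

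**Figure D2:**
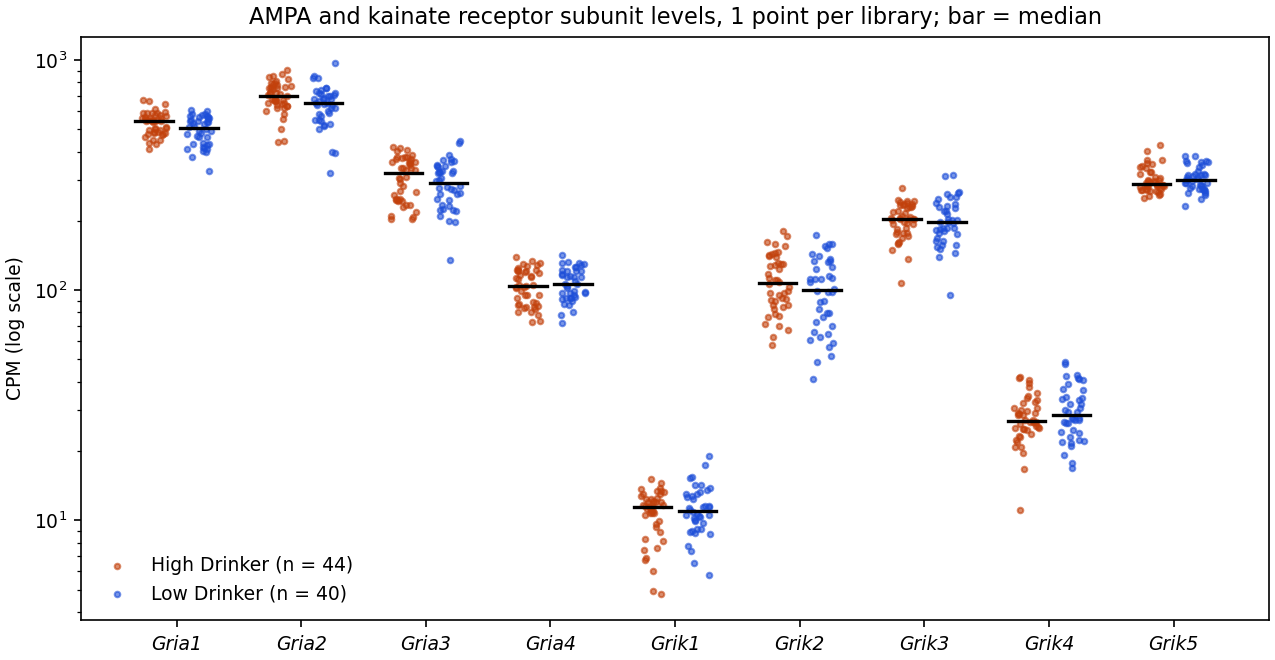
CPM of the 9 subunit genes on a log axis, 1 point per library, High Drinker in orange (n = 44) and Low Drinker in blue (n = 40), with bars at the medians. The lines overlap for every subunit, and the points of Grik2 spread from 41.02 to 180.02 CPM against 233 to 428 CPM for Grik5.

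The main question of the series was which genes differ between the drinking groups. Of the 9 subunit genes 0 passed an adjusted p of 0.05 (edgeR quasi-likelihood test, adjusted over all genes), against 672 of 17071 tested genes (3.94%). None had an unadjusted p under 0.05, which 3078 genes (18.03%) had. DESeq2 and limma-voom also called 0, with 2 of the 9 at an unadjusted p under 0.05 by limma-voom. The log2 differences, High minus Low Drinker, were positive for 6 and negative for 3 members, with 50.6% positive over all tested genes. Their median was 0.04 against 0.001 over all tested genes. Without the 5 libraries that stood apart 425 genes were called (2.49%) and 0 members, and the difference was 0.07 for Gria2, 0.02 for Grik3 and -0.01 for Grik2. A count of 0 members past the threshold does not show that their levels were the same.

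Gria1 (ENSMUSG00000020524, chromosome 11, 57011387 to 57330244, mm10) encodes GluA1, the subunit most tied to activity-dependent insertion of receptors. Its CPM ran from 411 through a median of 543 to 667 in High Drinker and from 330 through 506 to 607 in Low Drinker libraries, and 40 of 44 High Drinker libraries lay within the Low Drinker range. The log2 difference was 0.08 ± 0.04 (SE, edgeR adjusted p = 0.284), with a 95% interval from -0.001 to 0.17. Gria2 (ENSMUSG00000033981, chromosome 3, 80681450 to 80802835) encodes GluA2, which sets calcium permeability. It ran from 442 through 700.5 to 905 CPM in High Drinker and from 323 through 650.3 to 968 CPM in Low Drinker libraries. All 44 High Drinker libraries lay within the Low Drinker range, 32 of them above its median. The log2 difference was 0.11 ± 0.06 (adjusted p = 0.326, edgeR, interval -0.01 to 0.23).

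Gria3 (ENSMUSG00000001986, X chromosome, 41400854 to 41678601) encodes GluA3, a common partner of GluA2. It was at 204 CPM at the lowest, 322 at the median and 420 at the highest in High Drinker libraries, and at 135, 291 and 446 CPM in Low Drinker libraries. The ranges overlapped throughout, and the log2 difference was 0.13 ± 0.07 (adjusted p = 0.293, edgeR, interval -0.004 to 0.26). Gria4 (ENSMUSG00000025892, chromosome 9, 4417899 to 4796234) encodes GluA4, known from fast-spiking interneurons and early development. It was at 72.4, 104 and 140 CPM in High Drinker and at 72.3, 107 and 142 CPM in Low Drinker libraries (lowest, median and highest), nearly the same range. Its log2 difference was -0.03 ± 0.06 (adjusted p = 0.828, edgeR).

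The differences of Gria1 and Gria3 depended on the model. With 5 surrogate variables added, Gria1 (log2 difference 0.06, edgeR adjusted p = 0.0301) and Gria3 (0.11, adjusted p = 0.00752) passed, while the number of called genes rose to 2490 (14.6% of those tested). With a score of cortical markers added, Gria3 passed alone (0.14, adjusted p = 0.0425, with 6.85% of genes called). Within sheet set 1 the log2 differences were 0.17 for Gria2 and 0.20 for Gria3, and within set 2 they were -0.02 and -0.04, so the signs of both turned between the sets.

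Among the kainate subunits that form channels by themselves, Grik2 (ENSMUSG00000056073, chromosome 10, 49099460 to 49788766), which encodes GluK2, a subunit that forms channels alone or with GluK5, ran from 57.7 through 107 to 180.02 CPM in High Drinker and from 41.02 through 100.1 to 174 CPM in Low Drinker libraries. The groups overlapped over nearly their whole range. The log2 difference was 0.04 ± 0.10 (adjusted p = 0.879, edgeR), with an interval from -0.15 to 0.23. Grik1 (ENSMUSG00000022935, chromosome 16, 87896196 to 88056176), which encodes GluK1, ran from 4.80 to 15.2 CPM in High Drinker and from 5.78 to 18.9 CPM in Low Drinker libraries. Grik3 (ENSMUSG00000001985, chromosome 4, 125490700 to 125714173), which encodes GluK3, a subunit of low glutamate affinity, ran from 108 to 279 and from 94.8 to 317 CPM. Their log2 differences were -0.01 ± 0.08 for Grik1 (adjusted p = 0.960) and 0.05 ± 0.06 for Grik3 (adjusted p = 0.731, edgeR).

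Grik4 and Grik5 encode GluK4 and GluK5, the subunits of high glutamate affinity that need a partner. Grik4 (ENSMUSG00000032017, chromosome 9, 42518135 to 42944493) ran from 11.1 to 42.1 CPM in High Drinker and from 16.9 to 48.9 CPM in Low Drinker libraries, where its median was 28.7 CPM and 25 of the 44 High Drinker libraries lay below it. Grik5 (ENSMUSG00000003378, chromosome 7, 25009853 to 25072369) ran from 250.4 through a median of 288 to 428 CPM against 233 through 302 to 384 CPM. For both genes 42 of 44 High Drinker libraries lay within the Low Drinker range. The log2 differences were -0.03 ± 0.07 (adjusted p = 0.876) and 0.005 ± 0.04 (adjusted p = 0.968, edgeR). The interval for Grik5, from -0.07 to 0.08, was the narrowest of the 9, and that for Grik2 the widest.

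**Figure D3:**
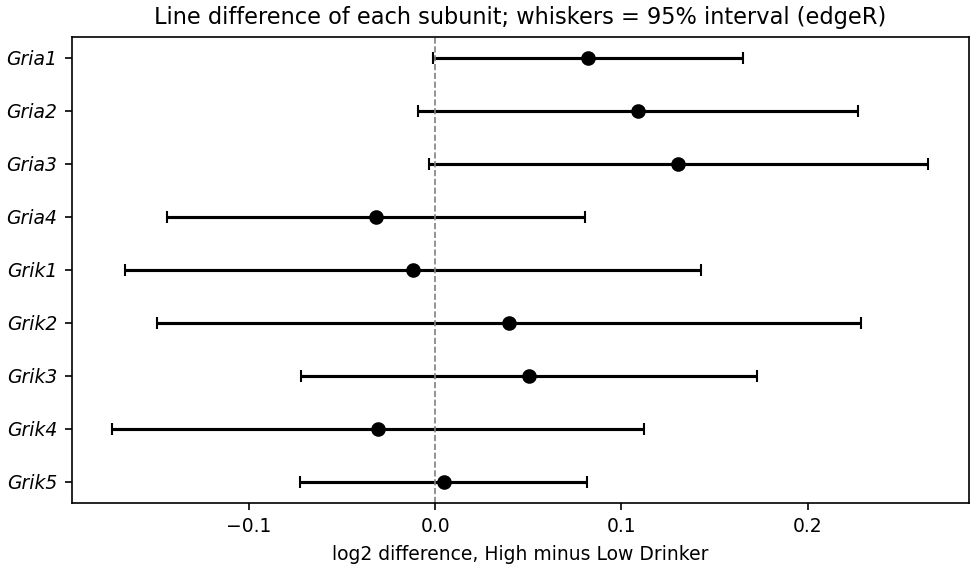
Log2 difference between the lines, High minus Low Drinker, for each subunit gene; points are edgeR estimates from 84 libraries, whiskers 95% intervals and the dashed line 0. All 9 intervals include 0, with those of Gria1 (-0.001 to 0.17) and Gria3 (-0.004 to 0.26) reaching it at their lower end.

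Marker lists of the cell types in the tissue were read in the same fit. Over all tested genes 50.6% had a positive sign. All 14 medium spiny neuron markers had a positive sign and 0 passed. Their score, the mean of the markers' centred log2 CPM, ran from -2.44 to 1.80 (median 0.28) in High Drinker and from -3.40 to 1.54 (median 0.04) in Low Drinker libraries. The score of 8 cortical markers ran from -2.47 to 1.002 (median 0.02) and from -1.40 to 1.08 (median 0.16), with 4 positive signs and 0 past the threshold. All 5 markers of oligodendrocyte precursors had a positive sign, and 1 passed, Cspg4 (log2 difference 0.21, edgeR adjusted p = 0.00344). Their score ran from -0.35 to 0.48 (median 0.08) in High Drinker and from -0.48 to 0.41 (median -0.05) in Low Drinker libraries. Of 7 oligodendrocyte markers 1 had a positive sign, of 5 endothelial markers 0, of 7 astrocyte markers 5 and of 6 microglial markers 2, with 0 past the threshold in each list. Striatal interneuron markers had 5 positive signs of 8, with log2 differences from -0.42 (Pvalb) to 0.36 (Chat). Markers of ependyma and choroid plexus had 2 of 5, from -2.44 (Ttr) to 0.08 (Foxj1). In both lists 0 passed. The 10% of genes with the longest merged exons, among them Gria2, Gria3 and Grik3, had a median log2 difference of 0.05, and the 10% with the shortest had -0.06. The part of any of these in the subunit values was not tested. In bulk tissue fewer cells of a type and less RNA per cell cannot be told apart.

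The balance between subunits was compared within libraries, as log2 ratios of CPM. Of 7 ratios, 1 (14.3%) differed between the lines, Gria4 to Gria2 (permutation test, two-sided, within sex and set, adjusted over the 7). It ran from -3.25 through a median of -2.74 to -2.36 in High Drinker and from -3.28 through -2.54 to -1.94 in Low Drinker libraries. The ranges overlapped, but 38 of 44 High Drinker libraries lay below the Low Drinker median. The mean log2 ratio was -2.75 ± 0.22 (SD, n = 44) against -2.57 ± 0.33 (SD, n = 40), a difference of -0.17 within strata (permutation p = 0.00557, adjusted p = 0.0390). Neither gene passed alone. The call was lost without the 5 libraries that stood apart (-0.13, permutation, adjusted p = 0.211), without set 3 (-0.15, adjusted p = 0.146) and in each sex and each of sets 1 and 2 alone. The difference was negative in all of these, from -0.06 in set 2 to -0.23 in males. It passed with the medium spiny neuron score removed (-0.15, permutation, adjusted p = 0.0338) and with the cortical score removed (-0.16, adjusted p = 0.0296). Both of these settings were chosen after the data were seen and keep the 5 libraries that stood apart.

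The other 6 ratios had adjusted p-values from 0.907 to 0.988 by the same permutation test. The difference was -0.03 for Gria1 to Gria2 and -0.001 for Gria3 to Gria2. For the kainate subunits it was -0.10 for Grik1 to Grik2, -0.002 for Grik3 to Grik2, -0.04 for Grik4 to Grik5 and 0.06 for Grik2 to Grik5. The SDs of these kainate ratios within a line were 0.39 to 0.80, several times the differences.

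Between the sexes 0 of 9 members differed (edgeR, 0 at an unadjusted p under 0.05 against 4.03% of all genes, and 0 by DESeq2 and limma-voom), where 17 genes were called (0.0996%). Gria3, the only member on the X chromosome, was at 295 ± 70.6 CPM in females (SD, n = 39) and 308 ± 64.0 CPM in males (SD, n = 45). Its log2 difference, male minus female, was 0.05 ± 0.07 (edgeR adjusted p = 0.999994). The line difference did not depend detectably on sex: the interaction was called for 0 genes (0.0%) and 0 members by edgeR, with 965 genes (5.65%) and 0 members at an unadjusted p under 0.05, and 0 by DESeq2 and limma-voom. The largest interaction terms among the members were those of Grik2 (0.26 ± 0.19, edgeR adjusted p = 0.787) and Grik4 (-0.20 ± 0.14, edgeR adjusted p = 0.784). These intervals were wide, from -0.12 to 0.63 for Grik2. With the medium spiny neuron score added to the fit they were 0.01 for Grik2 and -0.03 for Grik4, and with the cortical score added 0.07 and -0.02. The medium spiny neuron score averaged -0.52 in Low Drinker males, 0.16 in Low Drinker females, 0.27 in High Drinker males and 0.12 in High Drinker females.

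The series also asked whether genes varied more between animals of one group than of the other. For absolute deviations of log2 CPM from the median of line and sex, with set as a term of the fit alone, limma called 2 genes (0.0117%) and 0 members, and 0 members had an unadjusted p under 0.05 against 4.07% of all genes. The difference, High minus Low Drinker, was negative for 7 and positive for 2 of 9 members, with 37.5% positive over all tested genes. It was -0.10 ± 0.06 for Grik2 and -0.08 ± 0.04 for Grik3 (limma, adjusted p = 0.979 for both). The median over all genes was -0.01. With deviations from the median of line, sex and set these differences were -0.02 for Grik2 and -0.06 for Grik3, and limma called 0 genes, as it did without the 5 libraries that stood apart.

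Of 56 other genes of the pathway, all tested, 2 rose and 0 fell in High Drinker animals, against 1.86% of all genes higher and 2.08% lower. The median log2 difference was 0.04, with 42 positive signs. Over all tested genes 50.6% had a positive sign. Adar, an enzyme that changes adenosine to inosine in RNA (ENSMUSG00000027951, chromosome 3, 89715022 to 89753446), averaged 246 ± 25.7 CPM (SD) over the 40 Low Drinker and 271 ± 31.4 CPM over the 44 High Drinker libraries. Its log2 difference was 0.17 ± 0.03 (edgeR adjusted p = 0.00102), and 34 of 44 High Drinker libraries lay above the Low Drinker median. Adarb1, which encodes the deaminase known to edit the pore codon shown above for Gria2, averaged 233 ± 40.2 CPM over the 44 High Drinker libraries against 241 ± 55.0 CPM over the 40 Low Drinker ones (log2 difference 0.01, adjusted p = 0.969). These means lie the other way from that difference, which takes set and sex into account. Myo5a, a myosin motor that carries cargo into dendritic spines (ENSMUSG00000034593, chromosome 9, 75071015 to 75223688), averaged 616 ± 119 CPM in the High Drinker libraries against 513 ± 97.3 CPM in the others. Its log2 difference was 0.28 ± 0.07 (edgeR adjusted p = 0.00564), with 33 of 44 High Drinker libraries over the Low Drinker median. Both genes passed without the 5 libraries that stood apart. Neither passed in a single sex or in set 1 or set 2 alone, where Adar ran from 0.15 to 0.19 and Myo5a from 0.23 to 0.31.

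The auxiliary proteins that travel with AMPA receptors and set their gating had 0 of 14 genes past the threshold, 13 positive signs and a median log2 difference of 0.09. Whether these signs depart from the 50.6% of positive signs over all tested genes was not tested. The one with the highest level, Shisa7, was at 289.7 ± 48.5 CPM against 269 ± 46.7 CPM (0.10, edgeR adjusted p = 0.339). Of 4 kainate auxiliary genes and ligands 0 passed. Neto2, which slows the decay of kainate currents, was at 114 ± 33.5 against 104 ± 36.2 CPM (0.07, edgeR adjusted p = 0.774). None of 5 assembly genes passed, with Frrs1l, a factor of AMPA receptor assembly in the endoplasmic reticulum, at 0.10. Nor did any of 10 scaffolds and anchors, with Dlg4, which encodes PSD-95, at 820.3 ± 80.1 against 801 ± 64.6 CPM (0.04, edgeR adjusted p = 0.527). Of 10 trafficking genes Myo5a alone passed, and Nsf, an ATPase that binds GluA2, was at 0.03. Of 8 kinases and phosphatases 0 passed, with Camk2a, the kinase of synaptic strengthening, at 0.03. Of the delta subunits, which are relatives of these receptors, 0 of 2 passed, with Grid1 at 93.4 ± 11.9 against 85.3 ± 11.6 CPM (0.12, edgeR adjusted p = 0.0867).

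Across the 84 libraries most subunits varied with the scores of striatal and cortical markers, in opposite directions for each score. After removal of set, sex and line, 49 of 81 pairs of a subunit and a marker score had an adjusted permutation p under 0.05. Without the 5 libraries that stood apart 45 did. The share of all tested genes that varied with these scores was not worked out, so these counts do not set the subunits apart from other genes. The smallest p the permutations can give is 1e-05 (adjusted p = 4.26e-05). The medium spiny neuron and cortical scores were themselves related (r = -0.79), so that each r below shares information with the other. The points are libraries that share dissection and depth with both measures. Grik2 followed the medium spiny neuron score most closely, with r = 0.91 (rho = 0.93, permutation p = 1e-05, adjusted p = 4.26e-05, r = 0.93 without the 2 libraries farthest from the median), 0.94 within set 1 and 0.90 within set 2. Its r with the cortical score was -0.83 (rho = -0.88, same permutation p, -0.85 without the 2 farthest). Gria1 had r = 0.76 with the medium spiny neuron score (rho = 0.76, permutation p = 1e-05, adjusted p = 4.26e-05, 0.78 without the 2 farthest), 0.78 within set 1 and 0.76 within set 2. Its r with the cortical score was -0.69 (rho = -0.76).

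Grik4 showed the opposite relation, with r = 0.85 to the cortical score (rho = 0.85, permutation p = 1e-05, adjusted p = 4.26e-05, 0.83 without the 2 farthest), 0.90 within set 1 and 0.73 within set 2. Its r with the medium spiny neuron score was -0.74 (rho = -0.80). Gria3 (r = 0.74, rho = 0.76), Gria4 (r = 0.67, rho = 0.73), Grik3 (r = 0.60, rho = 0.53) and Grik1 (r = 0.59, rho = 0.57) were also related to the cortical score, each with a permutation p of 1e-05 and an adjusted p of 4.26e-05. Without the 2 farthest libraries these values were 0.72, 0.66, 0.52 and 0.52. Within sets 1 and 2 they were 0.80 and 0.69 for Gria3, 0.68 and 0.76 for Gria4, 0.67 and 0.46 for Grik3, and 0.73 and 0.38 for Grik1. The last, in set 2, did not pass (adjusted p = 0.0981, permutation). Gria2 (r = 0.002 with the medium spiny neuron and 0.17 with the cortical score) and Grik5 (0.12 and -0.08) did not pass with either (adjusted permutation p from 0.173 to 0.986). The level of Gria2 was related to the score of 7 astrocyte markers (r = 0.36, rho = 0.29, permutation p = 0.0007, adjusted p = 0.00167, 0.27 without the 2 farthest) and of 5 endothelial markers (r = -0.37, rho = -0.40, permutation p = 0.00055, adjusted p = 0.00154, -0.38 without the 2 farthest). Gria1 was also related to the score of oligodendrocyte precursor markers (r = 0.46, rho = 0.46, permutation p = 1e-05, adjusted p = 4.26e-05, 0.47 without the 2 farthest), and so was Gria2 (r = 0.33, rho = 0.30, permutation p = 0.00311, adjusted p = 0.00663, 0.31 without the 2 farthest). So were Grik2 (r = 0.35) and Grik3 (r = 0.34), while Gria4 (r = -0.28) and Grik4 (r = -0.25) had negative signs (adjusted permutation p from 0.00227 to 0.0359). The level of Gria1 was related to the scores of striatal interneurons (r = 0.61), microglia (r = 0.44) and ependyma and choroid plexus (r = 0.27) as well (adjusted permutation p from 4.26e-05 to 0.0241). Grik2 had higher r with the same scores (0.67, 0.46 and 0.42). Signs were negative for Gria3 (-0.37, -0.39 and -0.54), Gria4 (-0.41, -0.37 and -0.31) and Grik4 (-0.40, -0.50 and -0.42). Grik1 (-0.41) and Grik3 (-0.32) were related to the microglial score, and Grik3 (-0.29) to that of ependyma and choroid plexus. All of these passed (adjusted permutation p from 4.26e-05 to 0.0156). Grik5 had signs opposite to those of Gria2, with r = -0.39 to the astrocyte score (rho = -0.38, permutation p = 0.00026, adjusted p = 0.000752, -0.37 without the 2 farthest) and 0.34 to the endothelial score (rho = 0.41, permutation p = 0.00167, adjusted p = 0.00376, 0.29 without the 2 farthest). The astrocyte score was related to 4 other subunits too, with r = 0.36 for Grik1, 0.32 for Gria3, 0.30 for Gria4 and 0.28 for Grik3 (adjusted permutation p from 0.0016 to 0.0156). The endothelial score was also related to Grik3 (r = -0.43), Gria3 (r = -0.37) and Gria4 (r = -0.24), with adjusted permutation p from 0.000312 to 0.0452.

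**Figure D4:**
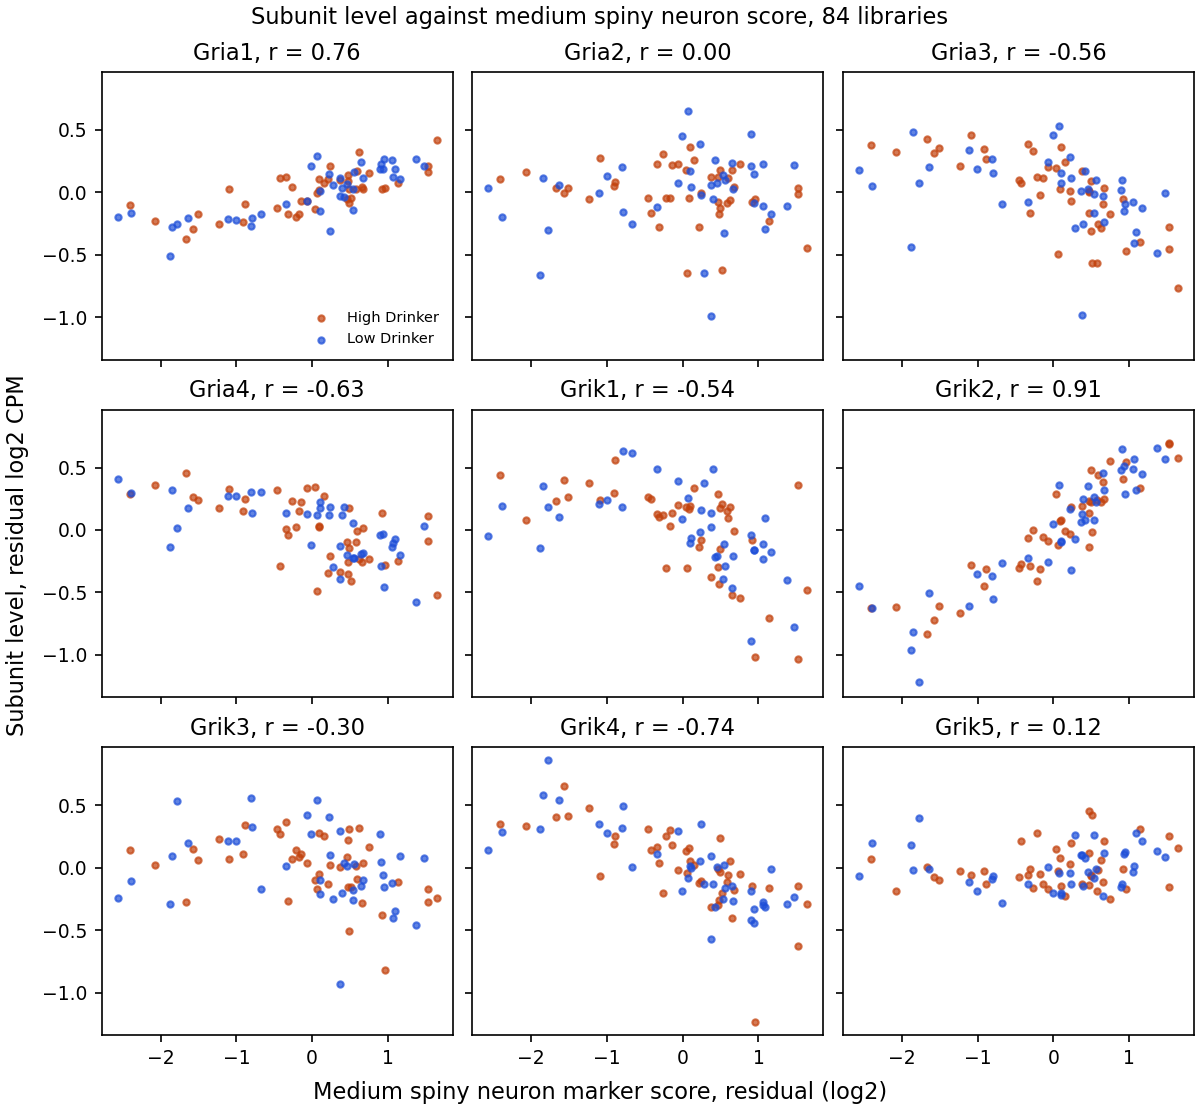
Residual log2 CPM of each subunit gene against the residual medium spiny neuron marker score (log2 units), 1 point per library (n = 84), after removal of set, sex and line; the Pearson r heads each panel. Grik2 rises with the score along a narrow band (r = 0.91), Grik4 falls with it (r = -0.74), and Gria2 shows no slope (r = 0.002).

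The medium spiny neuron score averaged 0.30 in set 1, -0.62 in set 2 and 0.72 in set 3. Grik2 was at 117 ± 33.3 CPM in set 1 (SD, n = 48), 87.1 ± 24.9 CPM in set 2 (SD, n = 30) and 122 ± 31.5 CPM in set 3 (SD, n = 6). Grik4 was at 26.9 ± 6.67, 34.2 ± 6.20 and 22.9 ± 3.56 CPM in the same order. Grik1 was at 10.3, 11.9 and 13.02 CPM, highest in set 3, and Gria4 at 104, 108 and 105 CPM. Differences between the sets were not tested. Whether the sets are batches of dissection, extraction or sequencing cannot be read from the labels.

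Among the subunits themselves, 26 of 36 pairs were related over the libraries (adjusted permutation p under 0.05), 18 of all 36 with a positive sign. The share of related pairs among other genes was not worked out, so this count does not set the subunits apart. The extremes were Gria1 with Grik2 (r = 0.83, rho = 0.81, permutation p = 1e-05, adjusted p = 2.12e-05, 0.80 without the 2 farthest) and Grik2 with Grik4 (r = -0.80, rho = -0.80, same permutation p, -0.78 without the 2 farthest). Within sets 1 and 2 they were 0.80 and 0.90 for the first pair and -0.82 and -0.79 for the second. Gria2 and Gria3 had r = 0.70 (rho = 0.62, permutation p = 1e-05, adjusted p = 2.12e-05, 0.64 without the 2 farthest, 0.65 and 0.78 within the sets). Gria3 and Gria4 had r = 0.67 (rho = 0.68, permutation p = 1e-05, adjusted p = 2.12e-05, 0.64 without the 2 farthest, 0.74 and 0.67 within the sets). Grik5 had a negative r with Gria2 (r = -0.51, rho = -0.53, permutation p = 1e-05, adjusted p = 2.12e-05, -0.53 without the 2 farthest, -0.41 and -0.70 within the sets). Gria1 and Gria4, whose pore windows are among the closest pairs above, had r = -0.61 (rho = -0.63, same permutation p, -0.65 without the 2 farthest).

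**Figure D5:**
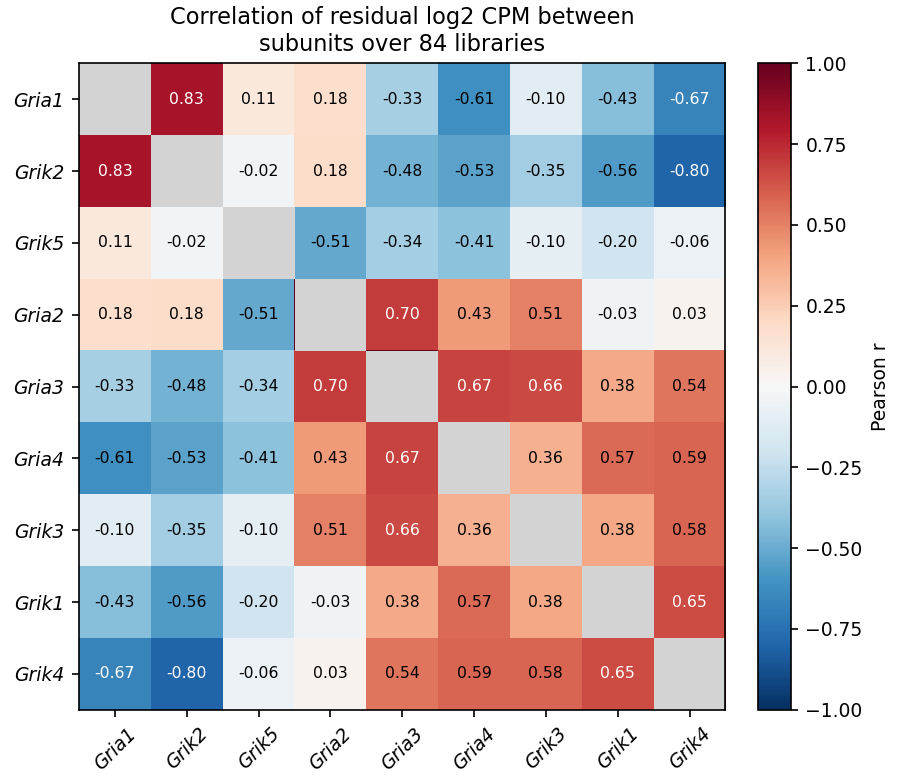
Pearson r of residual log2 CPM for each pair of subunit genes over 84 libraries, in red where positive and blue where negative, with the order of the genes set by hand. Gria1 and Grik2 form a pair (r = 0.83) with negative r to a block of Gria3, Gria4, Grik1, Grik3 and Grik4, whose pairs are all positive. The r of Gria1 with Grik3 is weak (-0.10) and did not pass (permutation, adjusted p = 0.413).

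For each subunit the 3 genes whose residual levels were most like its own were taken from 13270 genes with at least 1 CPM, by Pearson r over the 84 libraries. Grik2 was closest to Stk26 (r = 0.96), Ric8b (0.96) and Sertad4 (0.95), and Gria1 to the sodium channel subunit gene Scn3b (0.90), Ripor2 (0.90) and Shisa9 (0.89), an AMPA receptor auxiliary subunit. Gria2 was closest to the chromatin remodeller gene Atrx (0.94), Fnip1 (0.94) and Cpeb4 (0.94). Gria3 was closest to the calcium channel subunit gene Cacna2d1 (0.94), Acsl4 (0.91) and Tcf4 (0.91), and Gria4 to the phospholipase gene Plcb4 (0.90) and Zdhhc21 (0.89). Grik4 was closest to Rassf5 (0.90), Limk1 (0.90) and Sept3 (0.89), Grik3 to Xkr7 (0.89), Zmiz1 (0.88) and Xylt1 (0.86), Grik1 to Tmem132c (0.88), Adcy8 (0.84) and Optn (0.84), and Grik5 to Ankrd13b (0.85), Palm (0.83) and Mgat1 (0.81). None of the 9 lists held another member. Sets 1 and 2 are part of the 84 libraries by which these genes were chosen, so r within them is no separate check. There the first-named gene had r = 0.96 and 0.95 for Grik2, 0.88 and 0.91 for Gria1, and 0.90 and 0.73 for Grik1.

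The neighbourhood of the subunit genes held called genes at unequal shares. Within 5 Mb on each side of Grik4, on chromosome 9, 14 of 90 tested genes were called for the line difference (15.6%, 8 higher and 6 lower in High Drinker animals), the nearest being the sterol desaturase gene Sc5d (log2 difference 0.32, edgeR adjusted p = 0.000174). Grik4 itself was at -0.03. Around Grik3, on chromosome 4, 10 of 144 were called (6.94%), around Gria1 6 of 143 (4.20%), around Grik5 4 of 141 (2.84%) and around Grik1 1 of 52 (1.92%). Around Gria2, Gria3, Gria4 and Grik2, 0 of 39, 0 of 28, 0 of 23 and 0 of 19 were called, against 3.94% of all tested genes. Neighbouring genes are not independent, and these shares were not tested.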

How the data were processed

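The values are raw read counts of each gene in 84 libraries, as the authors deposited them, with a column of merged exon length in bases. The submitters' processing notes name FastQC, STAR, Subread with featureCounts, edgeR and genome build mm10. Tool versions and how counting treated strand and reads with several hits are not stated in the sources used here. Per the labels' protocols, cDNA was amplified (Ovation) before a TruSeq DNA library was made, which marks no strand, and reads were single end. The table holds 0 entries that name no gene and 0 columns of values outside the 84 animals. No pair of the 3486 was identical, and totals were 22190363 to 41300401.

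Group and sex are as labelled. Differences by line, by sex and by both were tested with edgeR 4.0.16 under R 4.3.3 (quasi-likelihood, TMM, filterByExpr by line and sex, set, sex and line as terms, Benjamini-Hochberg over 17071 genes, threshold 0.05). Variability used limma 3.58.1 on deviations of log2 CPM with a prior count of 2. CPM are scaled to library totals after TMM. Ratios and correlations used 100000 permutations. Alternatives used DESeq2 1.42.0, limma-voom and sva 3.50.0. Sequences and transcript lengths were read from GENCODE M21, aligned with MAFFT 7.526. Its gene models differ from those of the counting: the principal transcripts of Grik1 (3655 bases) and Grik2 (9427) exceed the deposited merged lengths (3137 and 8272). The tests of line, sex, interaction and variability were checked on simulated data. The permutation tests were not among them. In that check the variability test found most of the changed genes only at the largest change tried. The interaction test missed most genes with the smallest change.

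All members are named. Of the other pathway genes, those past the threshold and the one with the highest level in each class are named, and for likeness the 3 genes with the highest r. One gene that this rule takes is not reported here. Adarb1 was added after its values were seen. Members and lists were chosen with earlier results of these data known.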

Additional observations from a re-analysis of the deposited data

How the results depend on the processing

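The number of subunit genes called for the line difference was 0 in 13 of 15 alternatives, 2 with 5 surrogate variables (Gria1 and Gria3, as above) and 1 with the cortical score added (Gria3). It was 0 for sex, interaction and variability in every alternative run. Small differences turned sign. For the line difference, High minus Low Drinker, these were Grik4 0.00137 with surrogate variables, Grik1 0.00211 and Grik4 0.00241 with the cortical score, and Grik1 0.0259, Grik2 -0.0257, Grik4 0.028 and Grik5 -0.000245 with the medium spiny neuron score. In females they were Grik1 0.017, Grik2 -0.0778 and Grik4 0.0699, in males Grik5 -0.024, and without the set term Grik3 -0.00696 and Grik5 -0.0179. In set 1 they were Grik2 -0.0234 and Grik5 -0.0621, in set 2 Gria2 -0.0184, Gria3 -0.0373, Grik1 0.0473 and Grik3 -0.0219, without set 3 Grik1 0.0115 and Grik5 -0.0248, and without the 5 libraries that stood apart Grik2 -0.00822. For sex, Grik2 turned to 0.0207 with the medium spiny neuron score and 0.00798 without the 5 libraries, and Gria3 to -0.0749 in set 2. For the interaction, Grik2 turned to -0.0579 and Grik4 to 0.0208 with surrogate variables. Among pathway genes 11 passed with surrogate variables, 5 with the cortical score, 4 with the medium spiny neuron score, and 0 in females, males, set 1 or set 2 alone, where fewer libraries were fitted. The count of ratios that differed was 0 in set 1, set 2, without set 3, in females, in males and without the 5 libraries. Ratios that turned sign were Gria3/Gria2 at 0.0223 in set 1, 0.00149 without set 3, 0.0936 in females and 0.0178 without the 5 libraries, Grik3/Grik2 at 0.0859, 0.00237, 0.184 and 0.0162 in the same order, Grik4/Grik5 at 0.0261 in set 1 and 0.0237 in females, Gria1/Gria2 at 0.126 in set 2, and Grik1/Grik2 at 0.0876 and Grik2/Grik5 at -0.123 in females. With the medium spiny neuron score removed (chosen after seeing the data, like the cortical score and the principal transcript length) they were Gria3/Gria2 0.0304, Grik1/Grik2 0.00829, Grik3/Grik2 0.0887, Grik4/Grik5 0.00876 and Grik2/Grik5 -0.0122, and with the cortical score removed Gria3/Gria2 0.018 and Grik3/Grik2 0.055. Of 81 pairs with marker scores, 45 passed in set 1, 45 without the 5 libraries, and 25 in set 2, which has fewer libraries. With the medium spiny neuron score, r of Gria2 turned to -0.0407 in set 1, -0.0408 in set 2 and -0.0891 without the 5 libraries. With no term removed, r of Grik5 was -0.0291 with the medium spiny neuron and 0.0467 with the cortical score. Other causes were not tested. No paired analysis was possible because each animal has a number of its own and the groups share none that links animals. Counting error is largest for Grik1, with 140 to 632 counts per library.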
